A study of Mus musculus with 48 samples.

Results

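The elastic fiber and lysyl oxidase genes are 10 of the 47561 genes listed for the lungs of 48 mice, chosen by symbol: Eln, Fbn1, Ltbp4, Mfap4, Fbln1, Fbln5, Efemp2, Lox, Loxl1 and Loxl2. Adult mice of strain C3H/HeN (C3H) or C57Bl/6 (C57B), male (M) or female (F), received 1 intraperitoneal injection of saline or of 25 mg/kg aurothioglucose (ATG), which is a gold drug and an inhibitor of thioredoxin reductase. They were then kept for 96 h in room air or in hyperoxia (over 95% oxygen). Each of the 16 combinations of strain, sex, injection and air holds 3 mice, so the groups are C3HM, C3HF, C57BM and C57BF after saline or ATG in either air, and no other allele or agent is named for any of them. Transcripts were measured by RNA sequencing of lung tissue as FPKM, fragments scaled to transcript length and to the mapped fragments of the library. Length is divided out, but the level of a gene also depends on which reads were assigned to it. The housekeeping gene Hprt, for instance, was 0 FPKM in all 48 mice. Levels of different genes are therefore compared only roughly.

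An elastic fiber is a core of cross-linked elastin laid on a scaffold of fibrillin microfibrils. Some fibulins and microfibril-associated proteins bring the soluble elastin precursor to the scaffold, and lysyl oxidases oxidise its lysines so that the chains cross-link. In the lung these fibers give alveolar walls and vessels their recoil, most of the elastin is laid down while alveoli form, and the adult lung makes little new elastin unless it is injured.

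The filter for low values, which asked that 3 of the mice fitted together have 1 FPKM or more, was passed by all 10 genes in every comparison. Over the 48 mice the medians ran from 6.45 FPKM for Loxl2 to 246 FPKM for Mfap4, and between them lay Fbn1 at 12.6, Fbln1 at 13.9, Fbln5 at 23.6, Efemp2 at 33.4, Lox at 51.0, Loxl1 at 52.2, Ltbp4 at 105 and Eln at 145 FPKM. The highest mouse was 30.7 times the lowest for Eln and 13.5 times for Lox, against 2.13 times for Efemp2. The genes lie apart in the genome, each on a chromosome of its own. In GRCm38 (mm10) Eln lies at chr5:134702593-134747323 on the minus strand, Fbn1 at chr2:125300594-125507993 (minus), Ltbp4 at chr7:27305136-27337692 (minus), Mfap4 at chr11:61485431-61488900 (plus) and Fbln1 at chr15:85205949-85286535 (plus). Fbln5 lies at chr12:101746565-101819055 (minus), Efemp2 at chr19:5473954-5482517 (plus), Loxl1 at chr9:58287738-58313186 (minus), Loxl2 at chr14:69609068-69695834 (plus) and Lox on chromosome 18. Mfap4 overlaps Mapk7 and Efemp2 overlaps Mus81 on the opposite strand, with up to 16.0 and 23.2 FPKM for the neighbours, and whether strand was used to assign reads is not given in the sources used here.

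**Figure D1:**
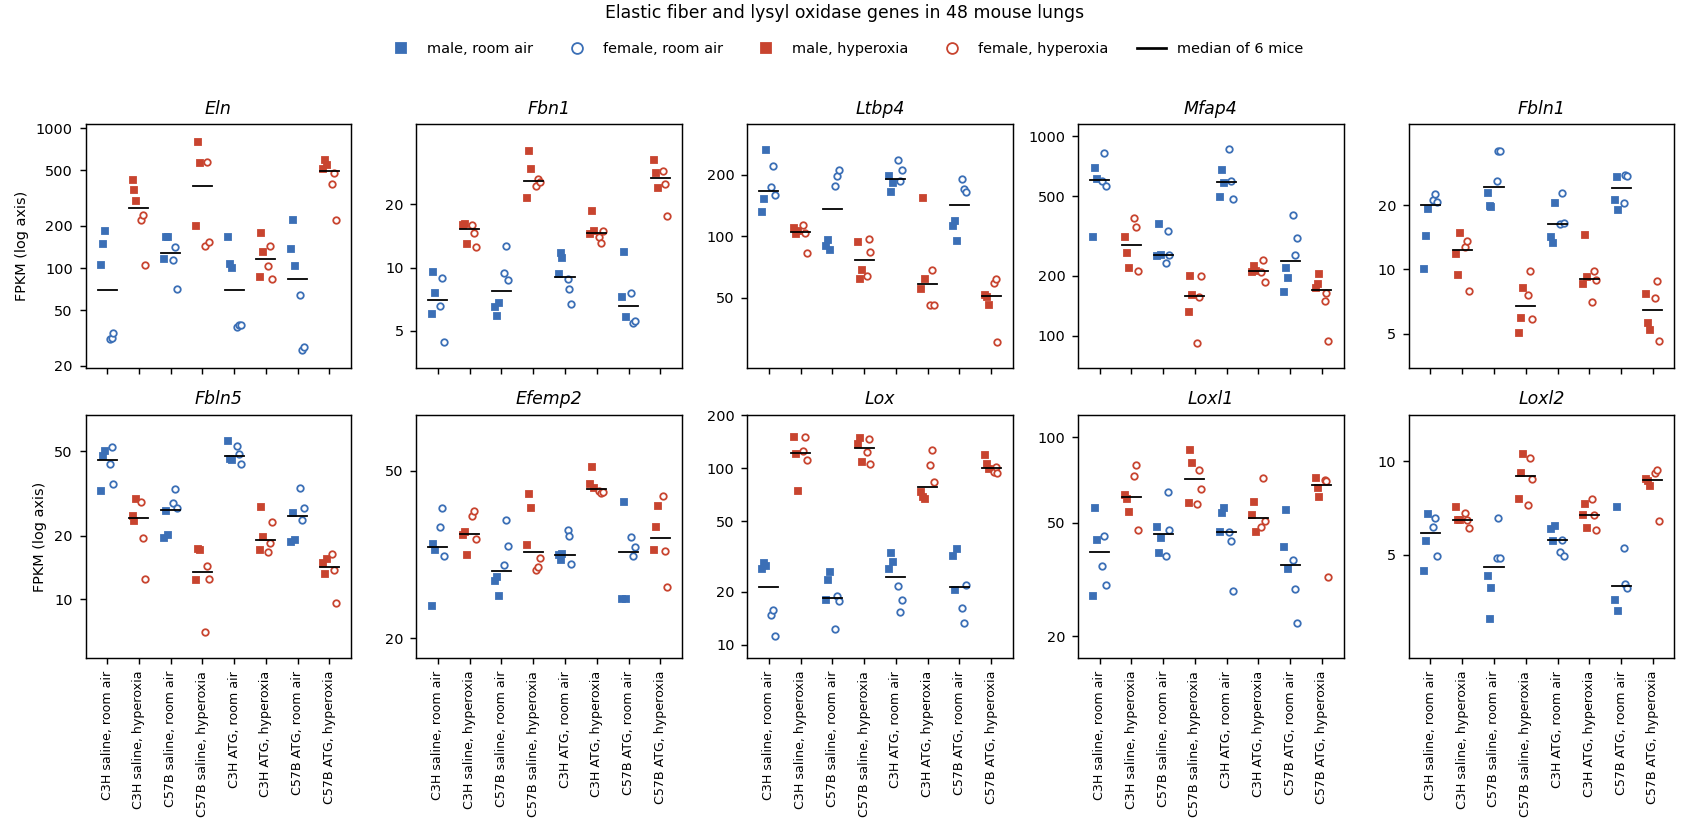
FPKM of the 10 genes in each of 48 mice on a log axis, by strain, injection and air. Squares are males, open circles females, blue room air and red hyperoxia, and each bar is the median of 6 mice. For Lox all 24 hyperoxia mice (67.0 FPKM or more) sit above all 24 room air mice (35.0 FPKM or less), while Fbln5 lies lower in hyperoxia within each strain.

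Under hyperoxia 9 of the 10 genes changed in saline mice, 5 of them upward and 4 downward. Transcripts of the cross-linking enzymes Lox, Loxl1 and Loxl2 and of the structural proteins Eln and Fbn1 rose, whereas Ltbp4, Mfap4, Fbln1 and Fbln5 fell. Among all genes tested in this comparison with limma on log2(FPKM + 1), 31.8% were higher and 28.3% lower at a Benjamini-Hochberg adjusted p under 0.05, against the 5 and 4 of 10 here. With so many genes changed, the counts are read against those shares, and the sizes of the changes carry the description. Folds below are on the scale of FPKM + 1 and slightly understate the change of low genes. In whole lung, fewer cells of a type and less RNA per cell cannot be told apart.

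Lox encodes the main enzyme that cross-links elastin and collagen, and it had the largest change of the 10. In saline room air the C3HM mice had 26.9, 29.1 and 28.0 FPKM, the C3HF mice 14.8, 15.6 and 11.2, the C57BM mice 18.0, 23.2 and 25.7 and the C57BF mice 12.3, 18.9 and 17.6. In saline hyperoxia the C3HM mice had 150.4, 120.4 and 75.0 FPKM, the C3HF mice 126, 151 and 112, the C57BM mice 138, 149 and 109 and the C57BF mice 124, 147 and 106. Both strains and both sexes were high in hyperoxia, and no hyperoxia mouse overlapped a room air mouse. The rise was 6.15-fold (log2 fold change 2.62 ± 0.11 SE, n = 12 and 12, adjusted p = 2.8e-13). It was 2.54 in C3H and 2.70 in C57B on the log2 scale, and the difference between the strains was -0.16 (95% interval -0.62 to 0.30, adjusted p = 0.68).

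Loxl1, an enzyme of the same family that is needed to maintain elastic fibers in adult tissue, changed less. Its FPKM in saline room air was 27.7 at the lowest, 39.4 at the median and 56.5 at the highest in C3H, and 38.1, 45.8 and 63.9 in C57B. In saline hyperoxia it was 47.3, 61.6 and 79.6 in C3H and 58.1, 71.2 and 89.8 in C57B, so that the ranges overlapped in both strains. Across strains it rose 1.56-fold (log2 fold change 0.64 ± 0.12 SE, adjusted p = 0.00014).

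Loxl2, which can cross-link the collagen of basement membranes, was the lowest of the 10 genes. In C57B it went from 3.11 to 6.57 FPKM (median 4.58) in saline room air to 7.21 to 10.6 (median 8.95) in hyperoxia, with no overlap. In C3H it went from 4.45 to 6.79 (median 5.86) to 6.11 to 7.13 (median 6.47), with overlap. Over both strains the log2 fold change was 0.51 ± 0.08 SE (adjusted p = 3.1e-05).

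Eln encodes tropoelastin, the soluble precursor of the elastic core. In saline room air the FPKM was 106, 149.7 and 185 in C3HM, 30.9, 31.6 and 34.5 in C3HF, 115, 167 and 167 in C57BM and 115, 142 and 71.3 in C57BF. In saline hyperoxia it was 423, 364 and 301 in C3HM, 219, 240.4 and 106 in C3HF, 199.8, 795 and 566 in C57BM and 145, 571 and 154 in C57BF. The 3 C3HF mice in room air were the lowest of the 24, and C57B mice in hyperoxia were widely scattered, from 145 to 795 FPKM. Eln rose 3.07-fold over both strains (log2 fold change 1.62 ± 0.24 SE, adjusted p = 7.4e-06), and its SE was the largest among the 10 genes in this comparison.

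Fbn1 encodes fibrillin-1, the backbone of the microfibril. Its FPKM in C3H was 4.43 at the lowest, 7.02 at the median and 9.55 at the highest in saline room air and 12.6, 15.3 and 16.1 in hyperoxia. In C57B it was 5.87, 7.73 and 12.7 in room air and 21.4, 26.0 and 36.2 in hyperoxia. Hyperoxia lay above room air without overlap in each strain, and it lay higher in C57B than in C3H. The rise over both strains was 2.46-fold (log2 fold change 1.30 ± 0.10 SE, adjusted p = 2.3e-09).

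The microfibril proteins Mfap4 and Ltbp4 moved the other way. Mfap4, which binds elastin and fibrillin and had the highest median of the 10 transcripts over the 48 mice, was between 313 and 825 FPKM (median 607) in C3H and between 231 and 366 (median 255) in C57B in saline room air. In saline hyperoxia it was between 212 and 390.1 (median 285) in C3H and between 92.3 and 201 (median 159) in C57B. The ranges overlapped in C3H only through mouse 1, a C3HM mouse at 313 FPKM in room air. Mfap4 was 1.93-fold lower over both strains (log2 fold change -0.95 ± 0.15 SE, adjusted p = 2.4e-05).

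Ltbp4 encodes a fibrillin-like protein that binds latent TGF-beta and helps fibulin-5 onto microfibrils. Its FPKM in saline room air was 131, 153 and 265 in C3HM, 174, 221 and 159.5 in C3HF, 89.6, 95.5 and 85.2 in C57BM and 176, 197 and 212 in C57BF. In saline hyperoxia the 12 mice lay between 61.8 and 113 FPKM. The C57BM mice were already low in room air and overlapped hyperoxia, while the other groups did not. Ltbp4 was 1.72-fold lower over both strains (log2 fold change -0.79 ± 0.11 SE, adjusted p = 2.7e-06).

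The fibulins were not alike. Fbln5 encodes an adaptor that tethers elastin to microfibrils and cells. It ran from 32.4 to 52.5 FPKM (median 45.5) in C3H and from 19.5 to 33.1 (median 26.5) in C57B in saline room air, and from 12.5 to 29.9 (median 24.1) and from 7.03 to 17.3 (median 13.5) in hyperoxia. No hyperoxia mouse overlapped a room air mouse of its strain, and the log2 fold change was the same in both strains to the second decimal (-0.91). Fbln1 encodes a fibulin of elastic fibers and basement membranes. It ran from 10.0 to 22.7 FPKM (median 20.1) in C3H and from 19.7 to 36.0 (median 24.5) in C57B in saline room air, and from 7.90 to 14.8 (median 12.3) and from 5.05 to 9.79 (median 6.77) in hyperoxia. The ranges were far apart in C57B and overlapped in C3H. Over both strains the log2 fold change was -1.17 ± 0.12 SE for Fbln1 (adjusted p = 5.5e-08) and -0.91 ± 0.13 SE for Fbln5 (adjusted p = 6.0e-06). Efemp2 encodes fibulin-4, which brings lysyl oxidase to elastin. It was nearly level, at 23.9 to 40.8 FPKM in the 12 saline room air mice and 29.0 to 44.0 in the 12 saline hyperoxia mice (log2 fold change 0.15, 95% interval 0.01 to 0.30, adjusted p = 0.061).

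The 250 bases before the start of these 3 fibulin genes are shown because Fbln1 and Fbln5 fell together in hyperoxia and Efemp2 did not. RefSeq promoter entries (GRCm38.p6) were found for 5 of the 10 genes, Fbn1 and Ltbp4 being the others. The windows are chr15:85205699-85205948 (plus strand) for Fbln1, chr12:101819120-101819369 (minus) for Fbln5 and chr19:5473696-5473945 (plus) for Efemp2. Each is printed 5′ to 3′, and capitals mark every match, on either strand, to GGGCGG (Sp1) and ACGTG (the core of a hypoxia response element).
Fbln1: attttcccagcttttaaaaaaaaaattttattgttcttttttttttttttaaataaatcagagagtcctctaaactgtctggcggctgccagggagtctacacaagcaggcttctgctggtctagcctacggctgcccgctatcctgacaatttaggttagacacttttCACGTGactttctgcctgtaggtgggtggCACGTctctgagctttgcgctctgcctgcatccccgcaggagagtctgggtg
Fbln5: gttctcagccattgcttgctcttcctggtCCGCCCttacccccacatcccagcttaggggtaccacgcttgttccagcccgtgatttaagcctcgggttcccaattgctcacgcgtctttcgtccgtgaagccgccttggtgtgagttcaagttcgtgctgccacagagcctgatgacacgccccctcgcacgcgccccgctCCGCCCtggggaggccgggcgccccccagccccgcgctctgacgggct
Efemp2: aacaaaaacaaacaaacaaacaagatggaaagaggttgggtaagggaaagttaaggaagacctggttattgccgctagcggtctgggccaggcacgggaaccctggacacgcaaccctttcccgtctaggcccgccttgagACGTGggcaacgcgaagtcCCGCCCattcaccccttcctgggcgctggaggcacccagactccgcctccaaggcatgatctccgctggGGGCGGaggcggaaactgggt
The Fbln1 window holds a CACGTG, in which ACGTG is read on both strands, starting 81 bases before the start, and a CACGT at 52 bases, with no GGGCGG on either strand. The Fbln5 window holds CCGCCC at 221 and 48 bases before the start and no ACGTG. The Efemp2 window holds ACGTG at 109 bases, CCGCCC at 90 and GGGCGG at 21 bases. Among the 250-base windows of 32851 RefSeq promoters, 32.7% held GGGCGG and 16.6% ACGTG on either strand. None of the 3 windows held TGANTCA (AP-1), which 6.75% of all windows held, or GGAATG (TEAD), which 12.6% held. A match is a run of letters and was not tested as a binding site.

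The 24 ATG mice gave a second measurement of hyperoxia in animals that shared no library with the saline mice. Of the 10 genes 6 were higher and 4 lower, where 35.8% of all genes tested were higher and 26.0% lower. Each gene had the same sign as in saline mice. Lox was between 13.3 and 35.0 FPKM in the 12 ATG mice in room air and between 67.0 and 127 in the 12 in hyperoxia, again without overlap (log2 fold change 2.00 ± 0.09 SE, adjusted p = 3.3e-13). The log2 fold change was 1.66 ± 0.17 SE for Eln, 1.19 ± 0.10 SE for Fbn1, 0.51 ± 0.13 SE for Loxl1 and 0.51 ± 0.09 SE for Loxl2. It was -1.53 ± 0.14 SE for Ltbp4, -1.26 ± 0.12 SE for Fbln1, -1.08 ± 0.10 SE for Mfap4 and -1.0 ± 0.09 SE for Fbln5. These had adjusted p-values of 0.0016 or lower. Efemp2 was called here, at 0.32 ± 0.08 SE (adjusted p = 0.0021), and in C3H it went from 30.1 to 36.1 FPKM in room air to 44.2 to 50.9 in hyperoxia without overlap. After quantile normalization the Efemp2 call was lost (0.16, adjusted p = 0.11, range over the alternatives 0.00044 to 0.11).

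The strains were then compared in the size of their hyperoxia response, by the difference of the log2 fold changes (C3H minus C57B). In saline mice 3 of the 10 genes differed, against 11.5% of all genes tested. The median of all genes in this difference was 0.15, which median ratio scaling brought to 0.00, and values relative to it are given second. Fbln1 fell less in C3H than in C57B, with log2 fold changes of -0.56 and -1.77 and a difference of 1.21 ± 0.24 SE (1.05 relative to the median of all genes, adjusted p = 0.0032). Loxl2 was 0.18 (95% interval -0.07 to 0.43) in C3H and 0.84 in C57B, a difference of -0.66 ± 0.17 SE (-0.81 relative to the median, adjusted p = 0.016). Fbn1 rose less in C3H, 0.98 against 1.62. Its difference of -0.65 ± 0.21 SE was just past the threshold (-0.80 relative to the median, adjusted p = 0.0497), and the call was lost under 3 of 6 alternatives and in 20 of the 24 fits that left out 1 mouse.

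In ATG mice 5 of the 10 genes differed between strains in their response, against 13.3% of all genes. Eln in C3HM was 167, 108 and 99.6 FPKM in room air and 87.0, 177 and 130.1 in hyperoxia, and in C3HF it was 38.0, 39.3 and 39.0 and then 104, 145 and 84.1. In C57BM it was 137, 222 and 103 in room air and 512, 595 and 544 in hyperoxia, and in C57BF 64.7, 25.9 and 27.4 and then 400.1, 477 and 222. C57B mice of both sexes were thus high in hyperoxia, whereas the C3HM mice stayed within or near their room air range. The log2 fold change was 0.75 ± 0.25 SE in C3H (adjusted p = 0.015) and 2.57 ± 0.25 SE in C57B, a difference of -1.82 ± 0.35 SE (adjusted p = 0.0018). The C3H value alone was not called after median ratio scaling (0.62, adjusted p = 0.055) or quantile normalization (0.54, adjusted p = 0.079), and its adjusted p ran from 0.015 to 0.079 over the alternatives. Fbn1 again rose less in C3H (0.65 against 1.73, difference -1.08 ± 0.20 SE, adjusted p = 0.0017), and Fbln1 again fell less (-0.78 against -1.73, difference 0.95 ± 0.23 SE, adjusted p = 0.0095). Mfap4 fell more in C3H (-1.50 against -0.65, difference -0.85 ± 0.21 SE, adjusted p = 0.011). Loxl2 differed by -0.57 ± 0.18 SE (0.23 in C3H against 0.80 in C57B, adjusted p = 0.047), a call lost under 2 of 6 alternatives and in 19 of the 24 fits without 1 mouse. In saline mice the same differences were 0.50 for Eln (95% interval -0.49 to 1.49) and -0.16 for Mfap4 (-0.80 to 0.48), so neither was called there.

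**Figure D2:**
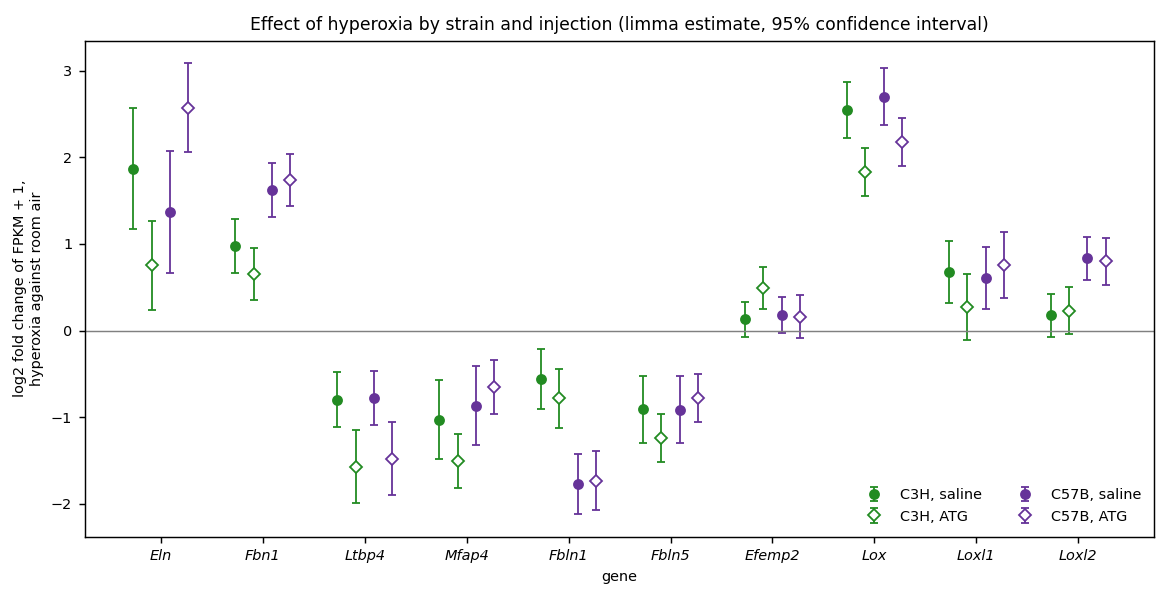
Log2 fold change of FPKM + 1 in hyperoxia against room air for each gene, with 6 mice per air in each strain and injection. Points are limma estimates and bars 95% intervals, green C3H, purple C57B, filled circles saline and open diamonds ATG. Lox, Fbn1 and Eln lie above 0 and Ltbp4, Mfap4, Fbln1 and Fbln5 below 0 in all 4 sets of mice, and the Fbln1 points of C57B (-1.77 and -1.73) lie below those of C3H (-0.56 and -0.78).

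The share of all genes called in hyperoxia within a strain was 37.8% in saline C3H, 55.5% in saline C57B, 47.9% in ATG C3H and 56.2% in ATG C57B mice, and the counts here were 8, 9, 8 and 9 of 10. The genes not called were Loxl2 and Efemp2 in saline C3H, Efemp2 in saline C57B, Loxl1 and Loxl2 in ATG C3H and Efemp2 in ATG C57B mice. Loxl1 in ATG C3H mice was 0.27 (95% interval -0.10 to 0.65) and Loxl2 0.23 (-0.04 to 0.50).

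Within saline hyperoxia, tested in the fit of all 24 saline mice, the strains themselves differed in 6 of the 10 genes, with 27.2% of all genes called. C3H was higher for Mfap4 (0.89 ± 0.22 SE), Fbln5 (0.74 ± 0.19 SE) and Fbln1 (0.66 ± 0.17 SE) on the log2 scale, and lower for Fbn1 (-0.84 ± 0.15 SE) and Loxl2 (-0.38 ± 0.12 SE), with adjusted p-values of 0.023 or lower. The Loxl2 call was lost without C57BM mouse 21 (adjusted p = 0.057) or C57BF mouse 44 (0.065). Ltbp4 was 0.41 ± 0.15 SE higher (adjusted p = 0.049), a call lost under 4 of 6 alternatives and in 17 of the 24 fits without 1 mouse.

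At baseline, in the 12 mice given saline and kept in room air, 4 of the 10 genes differed between strains, against 11.8% of all genes tested. Mfap4 was higher in C3H (log2 fold change 1.05 ± 0.20 SE, adjusted p = 0.0048), at 313, 692 and 615 FPKM in C3HM and 599, 825 and 562 in C3HF against 251, 366 and 255 in C57BM and 231, 334 and 256 in C57BF. Fbln5 was also higher in C3H (0.74 ± 0.14 SE, adjusted p = 0.0048), and its ranges of 32.4 to 52.5 FPKM in C3H and 19.5 to 33.1 in C57B overlapped only narrowly. Eln was lower in C3H (-0.86 ± 0.18 SE, adjusted p = 0.0096), where the 3 C3HF mice alone lay below every C57B mouse. Fbln1 was lower in C3H (-0.55 ± 0.14 SE, adjusted p = 0.029). That Fbln1 call was lost with median ratio scaling (-0.44, adjusted p = 0.062, range over the alternatives 0.021 to 0.062) and in 8 of the 12 fits without 1 mouse.

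Among ATG mice the strains were compared in room air within the fit of all 24 ATG mice, hyperoxia included, so its counts are not like for like with the 12-mouse fit of saline mice. No library is shared with that fit, and 2 of 10 genes were called against 18.7% of all genes. Mfap4 was 1.29 ± 0.15 SE higher in C3H (adjusted p = 2.5e-06), with 488 to 861 FPKM in C3H and 167 to 403 in C57B. Fbln5 was 0.98 ± 0.13 SE higher (adjusted p = 2.1e-05), with 43.6 to 55.8 FPKM against 18.7 to 33.5. Neither gene overlapped between strains in these mice. Eln was -0.08 (95% interval -0.59 to 0.43) and Fbln1 -0.45 (-0.79 to -0.11, adjusted p = 0.060). With C57BM mouse 17 left out, or mouse 11, a C3HM mouse in hyperoxia that enters only through the shared estimate of the spread, 4 of the 10 genes were called. Over the 24 fits without 1 mouse, all genes called higher in C3H ran from 1028 to 1410. With no mouse left out they were 1332.

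Males had more Eln and Lox transcript than females in room air. Among saline mice Eln was 1.30 ± 0.18 SE higher in males on the log2 scale (adjusted p = 0.012), and Lox 0.71 ± 0.13 SE higher (adjusted p = 0.041), 2 of 10 genes against 0.669% of all genes tested. The lowest male had 106 FPKM of Eln and 18.0 of Lox, and the highest female 142 and 18.9, so the sexes overlapped slightly over both strains and not at all within C3H. The median of all genes in this comparison was -0.12, and relative to it Eln was 1.42 and Lox 0.83. The Lox call was lost with genes above 0 kept (adjusted p = 0.063) or eBayes without trend (0.056), against 0.0033 with all 48 mice in the fit, and in 10 of the 12 fits without 1 mouse. With C3HM mouse 2 left out 5 of the 10 genes were called. Calls over all genes moved too: those higher in males ran from 8 to 740 over the 12 fits without 1 mouse. With all 12 mice they were 37.

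Sex in the 12 ATG mice in room air, again tested within the fit of 24 ATG mice and sharing no library with the saline mice, had Eln and Lox called too, against 2.04% of all genes. Eln was 1.81 ± 0.25 SE higher in males (adjusted p = 0.00026), with the males between 99.6 and 222 FPKM and the females between 25.9 and 64.7. Lox was 0.71 ± 0.13 SE higher (adjusted p = 0.0056), with 20.4 to 35.0 FPKM in males and 13.3 to 21.8 in females. The sexes did not overlap for Eln and overlapped slightly for Lox.

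Whether the sex difference itself depended on strain or air was tested directly. In saline room air the male minus female difference of Eln was 1.63 larger in C3H than in C57B (95% interval 0.83 to 2.43), but with an adjusted p of 0.13 it was not called. No gene of the 10 and none of all genes tested (0.0%) was called by limma for this interaction, although 2538 genes had an unadjusted p under 0.05. Without C3HM mouse 2 the Eln interaction passed (adjusted p = 0.022). Calls over all genes moved as well: those with a positive interaction ran from 0 to 626 over the 12 fits without 1 mouse. Between hyperoxia and room air, the male minus female difference of Lox moved by -0.78 in saline mice (95% interval -1.24 to -0.32, adjusted p = 0.145), with 0 of 10 genes called against 0.0368% of all genes. In ATG mice it moved by -0.91 ± 0.19 SE (adjusted p = 0.048), the only one of 10 called against 0.197% of all genes, and the call was lost under 4 of 6 alternatives and in 20 of the 24 fits without 1 mouse. In hyperoxia Lox was 73.5, 69.0 and 67.0 FPKM in ATG C3HM and 105, 127 and 83.8 in ATG C3HF, the only strain and injection in which the females lay above the males without overlap.

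**Figure D3:**
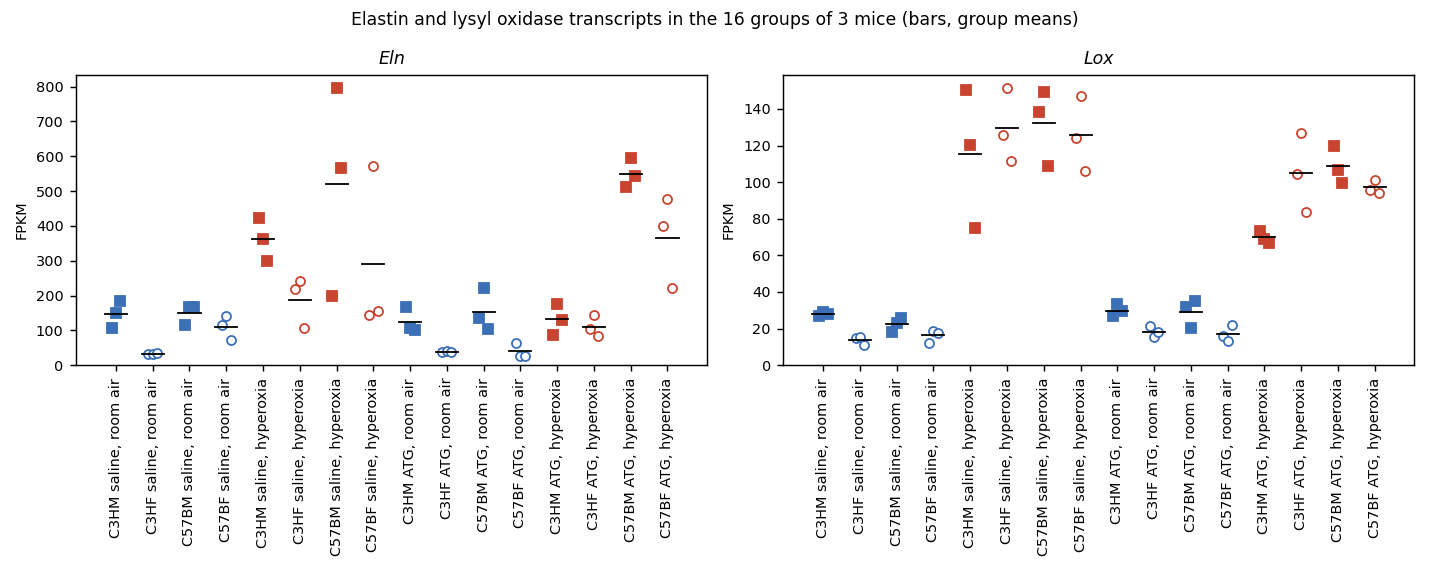
FPKM of Eln and Lox in the 16 groups of 3 mice on linear axes. Squares are males, open circles females, blue room air, red hyperoxia, and bars the group means. Eln in C3HF and in ATG C57BF mice in room air lies at 64.7 FPKM or less, and Eln in ATG C3H mice in hyperoxia lies at 177 FPKM or less while ATG C57B mice reach 222 to 595.

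ATG in room air gave 0 of 10 genes called, with limma calling 3 genes in all (0.0185% of those tested, and 1077 at an unadjusted p under 0.05). The differences of the 10 genes from saline lay between -0.38 for Eln (95% interval -0.72 to -0.04) and 0.22 for Lox (-0.0008 to 0.44). In hyperoxia 2 of the 10 genes were lower after ATG than after saline, against 5.47% of all genes called. Ltbp4 had a log2 fold change of -0.65 ± 0.15 SE (adjusted p = 0.021). After ATG its FPKM was 55.2, 154 and 61.6 in C3HM, 46.0, 68.2 and 46.0 in C3HF, 51.7, 50.2 and 45.9 in C57BM and 59.1, 61.8 and 30.2 in C57BF. Mouse 11, the C3HM mouse at 154 FPKM, stood above all 12 saline hyperoxia mice and the others did not. Lox was lower after ATG, with a log2 fold change of -0.40 ± 0.10 SE (adjusted p = 0.026), and the call was lost without C3HM saline mouse 8, C57BM ATG mouse 24 or C3HF ATG mouse 36 (adjusted p = 0.053 to 0.054).

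The effect of ATG on these 2 genes differed between hyperoxia and room air in the fit of all 48 mice, by -0.74 ± 0.18 SE for Ltbp4 (adjusted p = 0.025) and -0.62 ± 0.15 SE for Lox (adjusted p = 0.019), 2 of 10 genes against 2.77% of all genes. In hyperoxia Eln ran from 84.1 to 177 FPKM after ATG and from 106 to 423 after saline in C3H, and from 222 to 595 after ATG and from 145 to 795 after saline in C57B. The test of whether the ATG effect differed between strains gave -1.54 ± 0.49 SE (95% interval -2.57 to -0.51), which was not called (adjusted p = 0.18), with 0 of 10 genes against 0.416% of all genes.

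Ordered by median, the 8 combinations of strain, injection and air ran for Eln from 69.5 FPKM (ATG C3H, room air) through 70.1 (saline C3H, room air), 84.1 (ATG C57B, room air), 117 (ATG C3H, hyperoxia), 129 (saline C57B, room air), 271 (saline C3H, hyperoxia) and 383 (saline C57B, hyperoxia) to 494 (ATG C57B, hyperoxia). Each neighbour in this order overlapped the next in range. The order for Lox was 18.4 (saline C57B), 21.1 (ATG C57B), 21.3 (saline C3H) and 24.2 FPKM (ATG C3H) in room air, then 78.6 (ATG C3H), 100.4 (ATG C57B), 123 (saline C3H) and 131 FPKM (saline C57B) in hyperoxia. Only the step from 24.2 to 78.6 FPKM separated neighbours without overlap.

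Other genes of elastic fibers and microfibrils moved in both directions in hyperoxia. Of 18 such genes 16 were tested in saline mice, 4 were higher and 8 lower, where 31.8% of all genes were higher and 28.3% lower. Their median log2 fold change was -0.26 against 0.01 for all genes tested. Vcan, a proteoglycan whose presence keeps elastin from assembling, rose by 2.44 ± 0.27 SE and Loxl4, a further lysyl oxidase, by 1.29 ± 0.11 SE. Mfap2, a microfibril glycoprotein, was lower (-1.75 ± 0.08 SE), as was Adamts10, a protease that promotes microfibril assembly (-1.72 ± 0.15 SE). In ATG mice 4 were higher and 8 lower of the 16 (35.8% and 26.0% of all genes), with 2.34 for Vcan, 1.07 for Loxl4, -2.04 for Mfap2 and -1.42 for Adamts10. Fbn2 and Fbln7 did not pass the filter.

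Vcan, Loxl4, Mfap2 and Adamts10 also differed between strains in saline mice, each with the smaller change in C3H. The difference of the log2 fold changes (C3H minus C57B) was -2.44 ± 0.54 SE for Vcan, -0.84 ± 0.22 SE for Loxl4, 0.92 ± 0.17 SE for Mfap2 and 1.39 ± 0.30 SE for Adamts10, all with adjusted p-values of 0.017 or lower. Of the 16 genes tested 5 were called in this difference, against 11.5% of all genes.

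Most enzymes that degrade elastin were higher in hyperoxia. Of 9 such genes 8 were tested in saline mice, 7 were higher and none lower (31.8% and 28.3% of all genes), with a median log2 fold change of 0.84 against 0.01 for all genes tested. The changes of 2.69 ± 0.13 SE for Ctsk (cathepsin K) and 2.66 ± 0.20 SE for Mmp12 (macrophage elastase) stood beside 2.62 for Lox. Mmp14, which activates other matrix metalloproteinases, rose by 1.02 ± 0.12 SE and Ctsl (cathepsin L) by 0.89 ± 0.06 SE. In ATG mice 5 of the 8 were higher and none lower (35.8% and 26.0% of all genes), with 2.60 for Mmp12 and 2.08 for Ctsk. Within ATG C57B mice 5 were higher and Mmp9, named after its value was seen, was lower (-0.71 ± 0.28 SE, adjusted p = 0.036). Mmp12 rose more in C3H than in C57B, by 2.20 ± 0.40 SE in saline mice (adjusted p = 0.0018) and 2.54 ± 0.41 SE in ATG mice (adjusted p = 0.00045). Elane did not pass the filter.

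**Figure D4:**
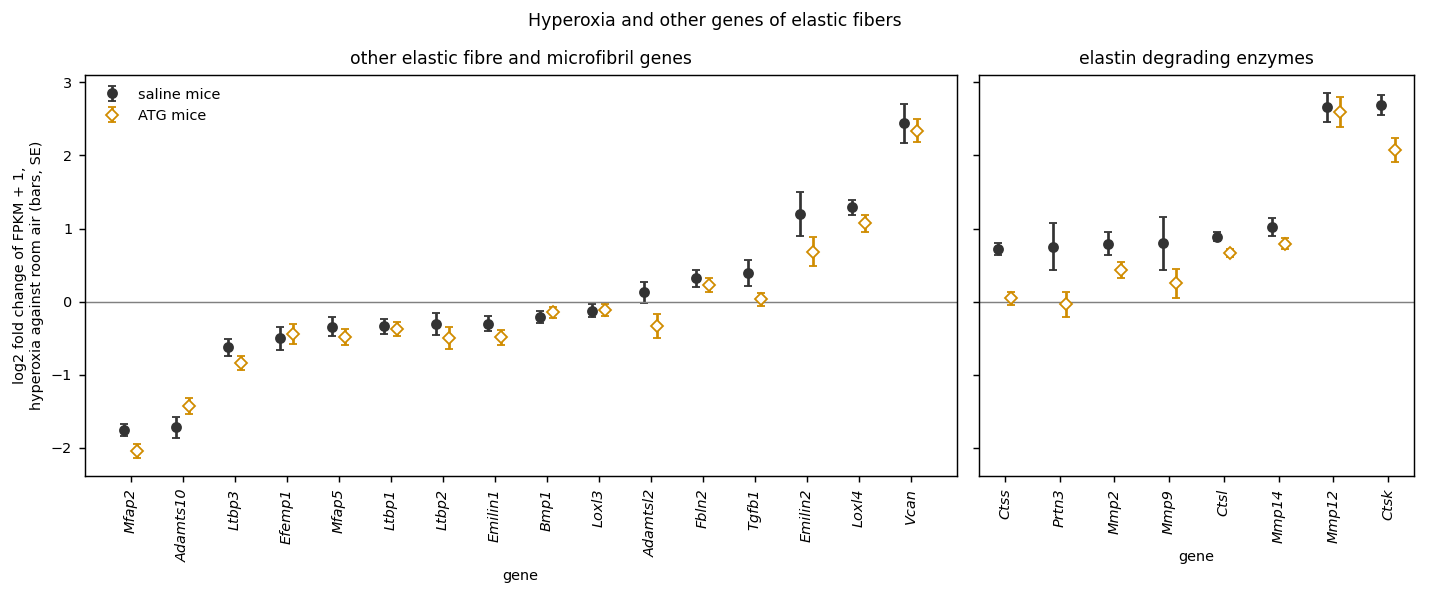
Log2 fold change of FPKM + 1 in hyperoxia against room air for 16 other elastic fiber and microfibril genes and 8 elastin degrading enzymes. Filled circles are saline mice and open diamonds ATG mice (12 mice in each air), and bars are SE. Vcan, Loxl4, Ctsk and Mmp12 lie above 1 and Mfap2 and Adamts10 below -1 in both sets of mice.

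Some markers of cells that make or surround elastic fibers also changed in hyperoxia. Among all genes tested in saline mice 31.8% were higher and 28.3% lower, and the counts below are read against those shares. Of 8 fibroblast markers in saline mice, 1 was higher (Pdgfra, 1.32 ± 0.14 SE) and 3 were lower (Tcf21, -1.82 ± 0.18 SE, Npnt, -1.24 ± 0.18 SE, and Dpt), and the summed level ran from 413 to 594 FPKM in room air and from 279 to 433 in hyperoxia. Of 6 smooth muscle markers 4 were higher, among them Tagln (1.08 ± 0.13 SE) and Acta2 (0.77 ± 0.12 SE), and the summed level ran from 172 to 386 FPKM in room air and from 290 to 674 in hyperoxia. Of 4 mesothelial markers 2 were lower and 0 higher. Of 5 cardiac muscle markers 4 were lower, with sums of 5.59 to 918 FPKM in room air and 7.25 to 71.3 in hyperoxia, and of the skeletal muscle and adipocyte markers 1 each was lower. Among 6 leukocyte markers 3 were higher, Cd68 most (2.03 ± 0.15 SE), and 2 lower. Cartilage markers were near 0, at 0.4 FPKM or less in sum in every mouse. The part of these shifts in the changes of the elastic fiber genes was not tested.

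The lung label was borne out by Sftpc, Sftpb, Scgb1a1, Ager, Pecam1 and Cdh5, each at 135 FPKM or more in every mouse. FPKM values summed to between 510933 and 748290 per mouse, and Scgb1a1, a club cell secretory protein, alone took from 1.20% to 30.2% of that sum, the highest share being in mouse 1, which also had the lowest Mfap4 of the C3H room air mice. In saline mice hyperoxia lowered Scgb1a1 (-2.55 ± 0.18 SE), Sftpc (-2.26 ± 0.15 SE) and Ager (-0.60 ± 0.15 SE) and raised the 2 lung markers Sftpb and Cdh5. Of 5 housekeeping genes tested 4 were higher, where 31.8% of all genes were. Over the 48 mice the median was 3.84 FPKM for Gapdh and 4.13 for Ppia, against 2311 for Actb. Hprt was 0 in all 48 mice and was not tested. How reads of these genes were assigned is not known, so the count is no measure of steady transcripts. Whether the shift in the make-up of the RNA moved the elastic fiber genes was not tested. Median ratio scaling lost no hyperoxia call in saline mice, but it divides each library by a common factor and is no test of that question. Sequencing depth cannot be read from these values, and the precision given here is that of the spread between mice.

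The genes whose pattern over the 48 mice was most like Eln, by Pearson's r of log2(FPKM + 1) among 16994 genes, were Acot2 (0.83), Angptl8 (0.81), Abi3 (0.80), Dtx4 (0.79) and Nupr1 (0.79). Those most like Lox were Serpina3m (0.96), Pla1a (0.95), Cdkn1a (0.95), Rhoc (0.95) and Ppp1r2 (0.94). All of these mice share the split by air, and after each of the 16 group means was removed the same r values were between 0.17 and 0.54 for Eln and between 0.28 and 0.55 for Lox. Among the 10 genes the closest pair was Fbln5 and Mfap4 (r = 0.92, and 0.72 within groups) and the most opposed was Fbln1 and Lox (r = -0.84, and -0.02 within groups). Fbn1 followed Loxl1 both over all mice (0.82) and within groups (0.80), whereas Lox was close to none of the other 9 within groups, with r between -0.12 and 0.33.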

How the data were processed

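Lung RNA of 48 mice was sequenced, 3 mice in each of 16 groups of strain, sex, injection and air, and the labels gave the group of each mouse. Per the labels, libraries came from a directional mRNA preparation; per the submitters' processing notes, the authors used GSNAP, SAMtools and Cufflinks on mm10. The deposited table holds FPKM values, 1 per gene and mouse, scaled by the authors to transcript length and mapped fragments; the annotation release and the use of strand are not given in the sources used here. Because FPKM is not a count, no count test was used, and the depth is unknown. The substrain of the C57Bl/6 mice differs between the sources (C57Bl/6N in the methods of the study, C57B6/J in the design text), and the methods describe neither an injection nor hyperoxia and name another library kit, so the labels were followed.

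Rows were taken by symbol; a second row named Ltbp4 (at most 0.675 FPKM) was not used, and Akap5, a failed estimate, was dropped. Coordinates came from GENCODE M21. Group means of log2(FPKM + 1) were estimated by limma 3.58.1 (R 4.3.3; eBayes with trend) where 3 or more of the mice fitted had to reach an FPKM of 1. Strain, sex and their interaction in saline room air were fitted on those 12 mice, the difference of the ATG effect between airs on all 48, and every other comparison on the 24 mice of its injection or, for ATG against saline, of its air, also where it compares only 12 of them; p-values were adjusted by Benjamini-Hochberg over all genes tested with a threshold of 0.05. Each log2 fold change is first minus second group as the text names them. The 10 genes were tested in every comparison, but in several only those called and a few others are named with values. Of the other elastic fiber genes and elastases, at most the 4 largest changes past the threshold were named. The genes, lists and tests were chosen with earlier results of these data known, and 7 comparisons (hyperoxia within each strain of ATG mice, strain by ATG in hyperoxia, sex and strain in ATG room air, sex by hyperoxia after each injection) were added after the data were seen. Alternatives were a pseudocount of 0.1, a filter of FPKM above 0, median ratio scaling, quantile normalization, eBayes without trend, all 48 mice in 1 fit, and leaving out each mouse. Simulated data tested the fits, with noise drawn independently for each gene. In the real saline mice 5192 genes were called higher and 4611 lower in hyperoxia. The shares recovered below therefore do not give the power in these data. With 200 of 16321 genes changed by 1 on the log2 scale, hyperoxia in saline mice recovered 89.0% of them and strain by hyperoxia 58.0%, and for a change of 0.5 they recovered 55.0% and 3.5%. Strain by sex in saline room air (15546 genes) recovered 11.0% and 0.0%.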

Additional observations from a re-analysis of the deposited data

Results flagged for a closer look

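In each of 80 groups of 6 mice (a gene in a strain, injection and air) the gap of the most extreme mouse was set against the range of the group, and 7 groups passed Dixon's critical value of 0.625, where chance gives about 1 in 20. Mouse 11 (C3HM, ATG, hyperoxia) was above the other 5 mice of its group for Ltbp4 (154 against at most 68.2 FPKM), Fbn1 (18.6 against at most 15.0) and Efemp2 (50.9 against at most 46.6). Mouse 48 (C57BF, ATG, hyperoxia) was below them for Loxl1 (32.3 against at least 61.8 FPKM) and Loxl2 (6.44 against at least 8.32). Mouse 17 (C57BM, ATG, room air) was above them for Fbn1 (11.9 against at most 7.59 FPKM), and mouse 33 (C3HF, saline, hyperoxia) was below them for Ltbp4 (83.0 against at least 102).

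A difference between groups in the size of an effect passed the adjusted threshold for 11 values, each tested as an interaction in limma. The share of all genes called was 11.5% for strain by hyperoxia in saline mice and 13.3% in ATG mice. It was 2.77% for ATG by air and 0.197% for sex by hyperoxia in ATG mice. None of the 10 genes was called for strain by sex in saline room air (0.0% of all genes). The same held for sex by hyperoxia in saline mice (0.0368%) and strain by ATG in hyperoxia (0.416%). The hyperoxia effect in C3H minus that in C57B was 1.21 for Fbln1, -0.65 for Fbn1 and -0.66 for Loxl2 in saline mice. In ATG mice it was -1.82 for Eln, -1.08 for Fbn1, 0.95 for Fbln1, -0.85 for Mfap4 and -0.57 for Loxl2. Fbn1, Fbln1 and Loxl2 were called in both sets of mice, which share no library. The Fbn1 call in saline mice was lost under 3 of 6 alternatives and in 20 of the 24 fits without 1 mouse. For Loxl2 in ATG mice the call was lost under 2 of 6 and in 19 of the 24. The Fbln1 call was kept throughout in both sets. The ATG effect in hyperoxia minus that in room air was -0.74 for Ltbp4 and -0.62 for Lox. The hyperoxia effect in males minus that in females was -0.91 for Lox in ATG mice. That call was lost under 4 of 6 alternatives and in 20 of the 24 fits without 1 mouse.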

How the results depend on the processing

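No paired analysis was possible because each mouse has a number of its own, so that the groups compared share none. In saline room air, the 2 genes called for sex became 1 with genes above 0 kept, 1 with eBayes without trend and 4 with all 48 mice in the fit. For sex by hyperoxia, the 0 of saline mice became 1 with all 48 mice, and the 1 of ATG mice became 0 with a pseudocount of 0.1, genes above 0 kept, eBayes without trend or all 48 mice. Shares of all genes called under these alternatives are not given here. Leaving out 1 mouse gave 3 to 5 genes for strain, 1 to 5 for sex and 0 to 2 for strain by sex in saline room air, 9 to 10 for hyperoxia and 2 to 3 for strain by hyperoxia in saline mice, and 4 to 6 for strain in saline hyperoxia. Calls over all genes moved as well. In saline room air all genes called higher (a positive difference) ran from 454 to 974 for strain and 8 to 740 for sex. For strain by sex they ran from 0 to 626. In saline mice they ran from 5020 to 5562 for hyperoxia and 1068 to 2603 for strain by hyperoxia. For strain in saline hyperoxia they ran from 2076 to 2937. Leaving out 1 mouse gave 10 of the 10 genes for hyperoxia and 4 to 7 for strain by hyperoxia in ATG mice, 0 to 2 and 0 to 1 for sex by hyperoxia in saline and ATG mice, 2 to 4 for strain in ATG room air, 0 for ATG in room air, 1 to 3 for ATG in hyperoxia and 2 for ATG by air. All genes called higher ran from 5634 to 5938 for hyperoxia and 1034 to 1468 for strain by hyperoxia in ATG mice. For sex by hyperoxia they ran from 1 to 1069 in saline mice and 9 to 20 in ATG mice. For strain in ATG room air they ran from 1028 to 1410. For ATG they ran from 2 to 26 in room air, 320 to 812 in hyperoxia and 130 to 524 by air. Single genes were followed only for differences called with all mice and for some uncalled ones given in this text. Directions of other uncalled values were not followed. Among those followed, no direction turned under the 6 other alternatives. With a mouse left out, only the uncalled strain difference of Eln in ATG room air turned. It was 0.07 without C57BM mouse 17 and 0.13 without C57BF mouse 40 (range -0.20 to 0.13). Some uncalled genes that were followed were called without a mouse. The list below is not complete, because genes not followed enter only the counts above. Efemp2 was called for hyperoxia in saline mice without mouse 2, 3, 19, 26, 33 or 38. Lox was called for sex by hyperoxia in saline mice without mouse 2 or 19, and Eln for the same in ATG mice without mouse 40. Eln was also called for strain by sex in saline room air without mouse 2. Fbln1 was called for strain in ATG room air without mouse 6, 11, 29, 40 or 48. Why these values move was not tested, depth is unknown, and a value at 3 mice a group rests on few animals.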
